A study of Saccharomyces cerevisiae with 7 samples.

Results

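Removal of Hsf1 from the nucleus without heat shock was examined as the ratio of nascent RNA in yeast given rapamycin at 30 °C to nascent RNA in the same strain at 30 °C without it. All genes whose mean over the 4 conditions of the table lay at or above the 20th percentile were taken, which is 4585 of 5732 genes. The gene just inside this limit was SIR2 with a mean of 14.5 normalized reads, and the gene just outside was XPT1 with 14.4. The rule used the level of a gene and not its ratio, so the ratios below did not choose the genes. The lowest value in any of the 4 conditions was 0.75. Genes without reads in a condition may therefore be absent from the 5732, which was not tested.

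Hsf1 is the heat shock transcription factor of Saccharomyces cerevisiae. It binds repeated heat shock elements in promoters and drives genes for Hsp70, Hsp90 and their partners, proteins that fold newly made chains and refold damaged ones. Some Hsf1 is active in unstressed cells, where it keeps a basal supply of chaperones, and yeast needs the factor to live at ordinary temperatures. In the anchor-away method a tagged nuclear protein is tied by rapamycin to an abundant protein that leaves the nucleus, so that its function can be taken away within one growth phase.

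The series holds 7 samples, 4 of nascent RNA and 3 of Hsf1 chromatin immunoprecipitation. The groups were 1 µM rapamycin at 30 °C, no rapamycin at 30 °C, 1 µM rapamycin with heat shock at 39 °C, and heat shock at 39 °C alone. Every nascent RNA sample came from strain DPY1283, which carries an anchor-away tag on Hsf1 and a FLAG tag on the RNA polymerase II subunit Rpb3, and each condition is 1 sample in the labels. The sources used here do not state the duration of rapamycin, the anchor protein or the rest of the genotype. No rapamycin-treated strain with untagged Hsf1 was analysed here, so loss of nuclear Hsf1 and other actions of rapamycin cannot be told apart.

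The deposited values are mean normalized reads for each gene and condition, averaged by the authors. The columns at 30 °C summed to 369160 with rapamycin and 377862 without it, and the steps between low values correspond to averaged libraries of 497000 and 374000 reads with rapamycin and of 794000 and 372000 reads without it. The averaged libraries cannot be separated, so there was no SD, no n and no test, and every interval below is a 95% interval that covers counting error only. Ratios are on the log2(value + 2.85) scale, which understates differences of genes with low values. A gene is called lower or higher when it differed by at least 1.3-fold and its counting interval lay wholly on that side of 0. Genes past 2-fold are given apart.

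Most genes had much the same normalized level at 30 °C with and without rapamycin on this scale. The ratio lay within 1.3-fold for 87.7% of the kept genes and the median log2 ratio was 0.0018. The scaling of the columns was not stated, and scaling can set this median. It therefore cannot show whether transcription changed as a whole. At least 2-fold lower were 17 genes, 0.371% of the 4585, and at least 2-fold higher were 2 genes, 0.0436%. Counting the smaller differences as well, 176 genes were called lower (3.84%) and 172 were called higher (3.75%), of which 159 and 170 were between 1.3-fold and 2-fold. The split turned to 140 lower and 226 higher when the columns were rescaled to equal totals, which moved the median of all kept genes by 0.03. The largest differences were losses, while the small ones were about as many on either side under the deposited scaling.

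Counting error covered most of the scatter of genes with low values and less of it for genes with high values. Among the 917 genes of lowest mean level the robust spread of the log2 ratio was 0.29 and the median counting standard error was 0.26. Among the 917 of highest mean level they were 0.17 and 0.11, a spread of 1.65 times the counting error. Over all kept genes the counting interval excluded 0 for 12.8%. With each interval widened by the spread found among genes of like level, a setting chosen after seeing the data, 104 of the 159 small losses and 119 of the 170 small gains were still called. Of the 17 genes past 2-fold on the lower side, 16 were among the 917 genes of highest mean level. The mean that ranks them includes the heat shock columns, where these genes are high without rapamycin.

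**Figure D1:**
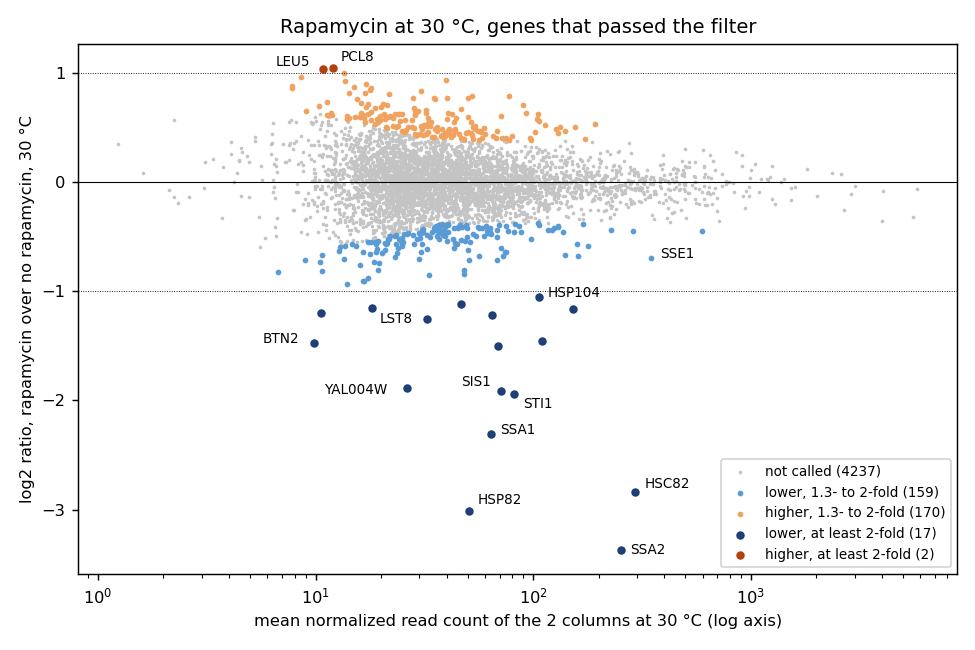
Each point is 1 of the 4585 kept genes, with the mean of the 2 deposited values at 30 °C on the log x axis and the log2 ratio of rapamycin over no rapamycin on the y axis; dotted lines mark 2-fold. The 17 genes at least 2-fold lower reach a log2 ratio of -3.37, while the 2 at least 2-fold higher lie just past 1.

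The constitutive Hsp70 genes SSA1 and SSA2 and both Hsp90 genes of the cytosol had the lowest ratios of all kept genes. SSA2 (YLL024C, R64 chromosome XII, 95566 to 97485), which encodes a constitutive Hsp70 that binds unfolded chains, had 42.3 normalized reads with rapamycin and 463 without it, which is a 10.3-fold difference with the pseudocount added to both values. With rapamycin 9.13% of its reads were left, with an interval from 7.35% to 11.2%. SSA1 (YAL005C, I, 139503 to 141431), its close paralog, had 19.5 with rapamycin and 108 without it, and 18.1% of its reads were left. The counting intervals of these 2 percentages, 7.35% to 11.2% and 12.9% to 24.8%, did not overlap, but the coding sequences are near-identical and the sources used here do not state how shared reads were assigned. Summed, which does not depend on that split, the pair had 61.8 with rapamycin and 571 without it, or 10.8% (9.05% to 12.8%).

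HSP82 (YPL240C, XVI, 96496 to 98625), the stress-inducible Hsp90 gene, had 8.90 normalized reads with rapamycin and 91.99 without it. HSC82 (YMR186W, XIII, 632355 to 634472), the constitutive Hsp90 gene, had 70.2 with rapamycin and 518 without it. The Hsp90 pair summed to 79.1 with rapamycin and 610 without it, leaving 13.0% (11.1% to 15.1%), close to what was left of the Hsp70 pair. SSA3 and SSA4, the Hsp70 genes known as inducible, were not called at 30 °C. SSA3 had 16.4 with rapamycin and 13.0 without it, and SSA4 had 25.2 with rapamycin and 28.5 without it, with log2 intervals from -0.27 to 0.84 and from -0.60 to 0.28. At 39 °C both genes were far lower with rapamycin, SSA3 at 24.5 against 433 normalized reads without it and SSA4 at 54.1 against 3610 without it. The Hsp110 gene SSE1 (YPL106C, XVI, 350194 to 352275), whose product exchanges nucleotide on Hsp70, was between the classes, at 265 with rapamycin and 432 without it, for a log2 ratio of -0.70 (-0.84 to -0.56).

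Several cochaperones that work directly with Hsp70 and Hsp90 were lower too, and others were not called. STI1 (YOR027W, XV, 381053 to 382822), whose product joins Hsp70 to Hsp90, had 32.3 normalized reads with rapamycin and 132 without it, for a log2 ratio of -1.94 (-2.27 to -1.60). The Hsp90 ATPase activator genes AHA1 (YDR214W, IV, 892875 to 893927) and HCH1 (YNL281W, XIV, 108467 to 108928) had ratios of -1.50 and -1.22. CPR6 (YLR216C, XII, 572096 to 573211), a cyclophilin that binds Hsp90, was lower by less, at 38.9 with rapamycin and 58.1 without it, a ratio of -0.54 (-0.90 to -0.19). Among the 12 Hsp90 cochaperones examined these 4 were called lower and none was called higher, against 3.84% and 3.75% of all kept genes. The other 8 members had intervals that include 0, among them CPR7 at -0.24 (-0.68 to 0.20), SBA1 at -0.10 (-0.39 to 0.20) and CDC37 at 0.20 (-0.22 to 0.62). PIH1 at 0.59 (-0.01 to 1.19) and SGT1 at 0.38 (-0.07 to 0.83) were the highest. Of the 12 members 7 were below 0 and 5 above, with a median log2 ratio of -0.17. CPR7 is the paralog of CPR6, and the intervals of the 2 genes overlapped.

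Some but not all genes of the J-proteins, which deliver substrates to Hsp70, were called lower as well. SIS1 (YNL007C, XIV, 618507 to 619565) had 28.2 normalized reads with rapamycin and 114 without it, for a log2 ratio of -1.91 (-2.27 to -1.56). YDJ1 (YNL064C, XIV, 505868 to 507097), the other major J-protein gene of the cytosol, had 93.2 with rapamycin and 212 without it, a ratio of -1.16 (-1.38 to -0.94). FES1 (YBR101C, II, 443821 to 444693), an Hsp70 nucleotide exchange factor gene, had 28.4 with rapamycin and 65.0 without it, a ratio of -1.12. APJ1 (YNL077W, XIV, 481391 to 482977) was lower at 12.2 with rapamycin and 20.7 without it, and had a ratio of -0.64 whose interval, -1.18 to -0.09, came close to 0. CAJ1, at -0.40 (-0.78 to -0.02), completed the 5 genes called lower of the 12 J-protein and exchange factor genes measured, with no gene called higher, against the same 3.84% and 3.75%. The calls of CAJ1 and APJ1, and of CPR6 above, were lost with the widened interval. The members farthest from 0 among those not called were SNL1, a membrane-bound Hsp70 exchange factor gene, at -0.30 (-0.77 to 0.16) and JJJ1 at 0.24 (-0.19 to 0.67). SGT2 (YOR007C, XV, 338938 to 339978), which hands tail-anchored membrane proteins to their targeting pathway, was in none of the lists and had 107 with rapamycin and 172 without it, a ratio of -0.67 (-0.89 to -0.45).

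Of 7 aggregate-handling and small heat shock genes 4 were called lower and 1 higher, against 3.84% and 3.75% of all kept genes, and most had few reads at 30 °C. HSP104 (YLL026W, XII, 88623 to 91349), which encodes the disaggregase that pulls proteins out of aggregates, had 68.1 normalized reads with rapamycin and 144 without it, for a log2 ratio of -1.05 (-1.31 to -0.79). BTN2 (YGR142W, VII, 772454 to 773686) and CUR1 (YPR158W, XVI, 843262 to 844020), paralogs that sort misfolded proteins into deposits, had 3.82 and 5.32 with rapamycin against 15.7 and 15.95 without it. Their ratios were -1.48 (-2.14 to -0.82) and -1.20 (-1.84 to -0.56), and both genes would fail a level filter set on the 30 °C columns alone. HSP42 (YDR171W, IV, 806621 to 807748), which encodes a chaperone of the small heat shock class active in unstressed cells, had 10.8 with rapamycin and 22.6 without it, a ratio of -0.91 (-1.46 to -0.35) whose call was lost with the widened interval. HSP26, the other gene of that class, had 1.98 with rapamycin and 2.68 without it, too few reads to show a difference. HSP12, a membrane stress protein gene, was at 10.1 with rapamycin and 9.44 without it, and HSP31, which encodes a stress-induced glyoxalase, was called higher, at 25.7 with rapamycin and 15.7 without it.

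Of 13 kept mitochondrial chaperone genes 5 were called lower, 1 of them past 2-fold, and 1 was called higher, against 3.84% and 3.75% of all kept genes. HSP78 (YDR258C, IV, 971808 to 974243), the mitochondrial disaggregase gene, had 10.1 normalized reads with rapamycin and 26.03 without it, for a log2 ratio of -1.15 (-1.70 to -0.60). The chaperonin genes HSP60 (YLR259C, XII, 663284 to 665002) and HSP10 (YOR020C, XV, 370524 to 370844), whose products form 1 folding chamber, had ratios of -0.68 (-0.88 to -0.47) and -0.84 (-1.20 to -0.48). MDJ1 (YFL016C, VI, 104701 to 106236), the J-protein gene of the matrix, was at 34.0 with rapamycin and 61.7 without it, a ratio of -0.81. SSQ1, an Hsp70 gene for iron-sulfur cluster assembly, was at -0.62 (-1.13 to -0.10). The other 7 kept genes were not called. SSC1, the main Hsp70 gene of the matrix, had 369 with rapamycin and 477 without it. Its ratio of -0.37 (-0.49 to -0.24) was under 1.3-fold although its interval excluded 0. MGE1, which encodes the nucleotide exchange factor for Ssc1, was called higher at 60.4 with rapamycin and 44.3 without it, with a ratio of 0.43 (0.09 to 0.76).

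**Figure D2:**
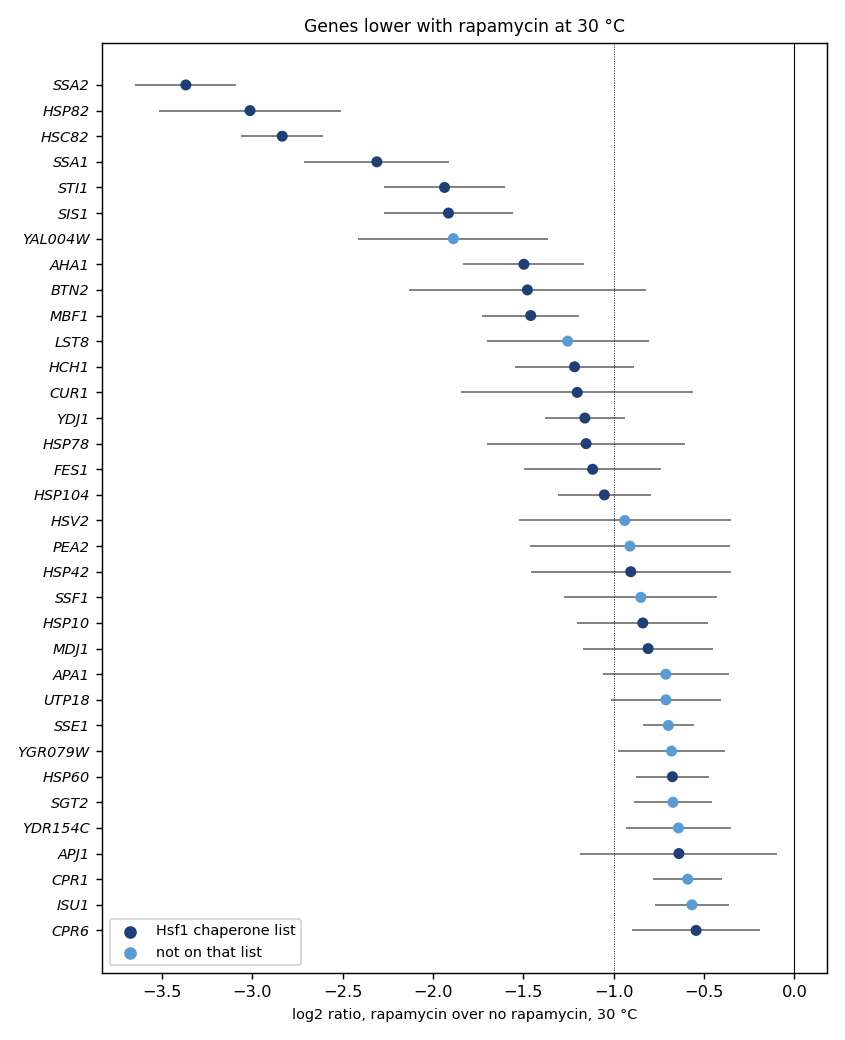
Log2 ratios of rapamycin over no rapamycin at 30 °C (x axis) for the 17 genes at least 2-fold lower, the other members of the Hsf1 chaperone list and the 15 genes with smaller losses whose counting interval lay farthest from 0; bars are 95% intervals for counting error only. SSA2, HSP82, HSC82 and SSA1 stand below -2, and every interval shown lies below 0.

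MBF1 (YOR298C-A, XV, 877230 to 877685), a transcriptional coactivator gene, had 57.0 normalized reads with rapamycin and 162 without it, for a log2 ratio of -1.46 (-1.73 to -1.19). It was 1 of 2 genes called lower among 17 stress transcription factor genes, 1 of them past 2-fold, against 3.84% and 0.371% of all kept genes. Of the 17 genes 10 were above 0. The second gene called lower was RPN4, whose product activates proteasome genes, at 30.0 with rapamycin against 41.6 without it. Its ratio of -0.43 (-0.83 to -0.03) was not called with the widened interval. HSF1 itself (YGL073W, VII, 368753 to 371254) had 60.3 with rapamycin and 78.7 without it. Its ratio of -0.37 (-0.66 to -0.07) was just under 1.3-fold, and the anchor-away method acts on the protein, so this value does not check the removal. RPB3, TOR1 and RPL13A, the last a common anchor in such strains, lay between 0.06 and 0.12. FPR1 was looked for by name and was not found among the deposited genes.

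The 21 genes of a list of Hsf1 chaperone targets, which was drawn up with earlier results of these data known and is no independent evidence, were all called lower, 15 of them past 2-fold, against 3.84% and 0.371% of kept genes. Their median log2 ratio was -1.20. The 21 genes together took 0.215% of all normalized reads with rapamycin and 0.711% without it. Their sum was 793 with rapamycin and 2687 without it, so that 29.5% was left. What was left of the single genes ran from 9.13% to 67.0%, with a median of 38.9%. At 39 °C the same genes kept between 0.520% (BTN2) and 26.7% (MBF1) of their level without rapamycin, with a median of 6.96%. Their sum at 39 °C was 2713 with rapamycin and 33439 without it, each above its counterpart at 30 °C. A lower percentage at 39 °C is therefore not a lower level with rapamycin for the genes as a sum. The percentage was lower at 39 °C than at 30 °C for 21 of 21 genes, and the counting intervals did not overlap for 20 of them, MBF1 being the exception. Over all kept genes the percentage was lower at 39 °C for 49.1%, and its interval lay below that at 30 °C without overlap for 5.67%. This difference between temperatures was not tested, since neither has replicate columns. The order also differed between the temperatures, with SSA2 lowest at 30 °C and BTN2 lowest at 39 °C, and FES1 thirteenth in the order of loss at 30 °C but next after BTN2 at 39 °C.

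**Figure D3:**
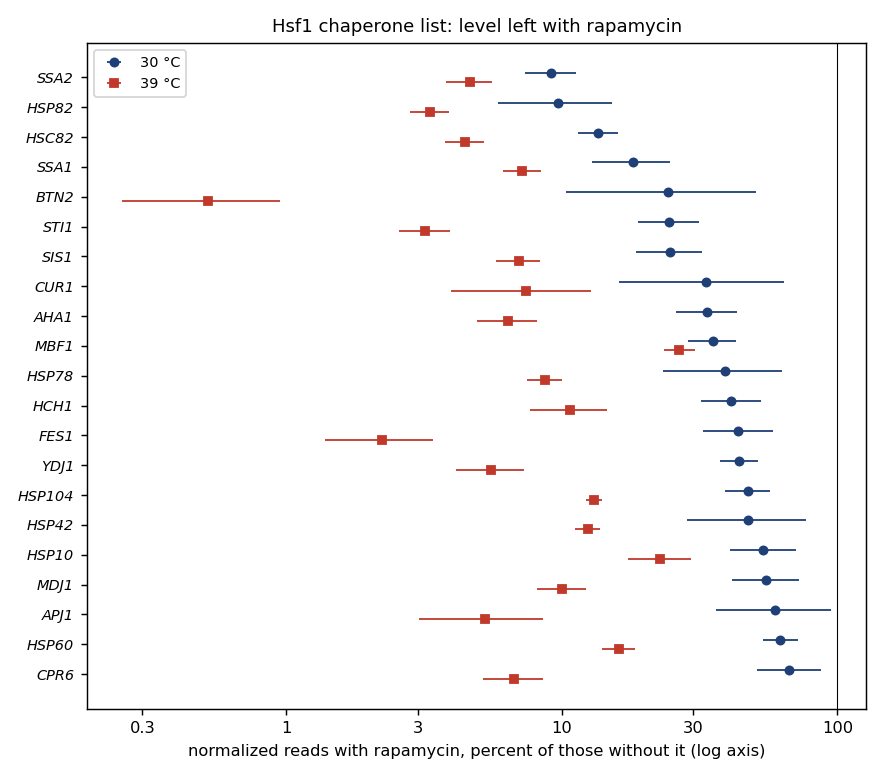
Normalized reads with rapamycin as a percentage of those without it (log x axis) for the 21 genes of the Hsf1 chaperone list at 30 °C (circles) and 39 °C (squares), with 95% counting intervals. At 30 °C the genes lie between 9.13% and 67.0%, and at 39 °C between 0.520% and 26.7%. Without rapamycin the 21 genes summed to 2687 at 30 °C and 33439 at 39 °C.

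Beyond these chaperones, 2 of the 17 genes past 2-fold lie next to a strong target. LST8 (YNL006W, XIV, 620067 to 620978), a subunit gene of the TOR complexes, had 17.9 normalized reads with rapamycin and 46.8 without it, for a log2 ratio of -1.26 (-1.70 to -0.81). LST8 and SIS1 are transcribed away from each other with 501 bp between the annotated genes. YAL004W had 9.52 with rapamycin and 42.9 without it. It is a dubious open reading frame on the strand opposite SSA1, the sources used here do not state whether counting used strand, and its reads and those of SSA1 cannot be told apart. At 39 °C LST8 had 26.8 with rapamycin and 856 without it.

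Most neighbours of the chaperone targets were not called lower at 30 °C, where 3.84% of all kept genes were called lower and 3.75% higher. Of 6 kept genes divergent from a target, LST8 was called lower, and YAR1 beside HSP82, EFB1 beside SSA1, MTQ1 beside YDJ1, LCB5 beside HSP60 and BUD7 beside MBF1 were not. At 39 °C all 6 were at least 2-fold lower, where 2.88% of kept genes were. Their log2 ratios there ran from -1.01 for BUD7 to -3.99 for YAR1 and -4.85 for LST8. EFB1, a translation elongation factor gene, had 444 with rapamycin and 558 without it, for a log2 ratio of -0.33 whose interval, -0.44 to -0.22, excluded 0 without reaching 1.3-fold. YAR1, a ribosome assembly gene, had 29.2 with rapamycin and 37.7 without it, and its interval of -0.75 to 0.07 included 0. Among 11 kept genes just upstream of a target on the same strand, UPC2 (sterol regulator, beside AHA1) and POM33 (nuclear pore, beside SSA2) were called lower at -0.60 and -0.55. TDA6, upstream of CUR1, was called higher at 0.79. None of the 9 downstream genes on the same strand and none of the 6 convergent genes was called in either direction at 30 °C. Losses past 2-fold at 39 °C were not limited to divergent genes. Upstream NIS1 was there at -2.88 and VPS62 at -2.52, convergent MMS4 at -1.62 and downstream ASI3 at -1.41. Others in each of these arrangements were not past 2-fold lower, such as upstream TDA6 at 0.42, convergent ERG24 at -0.59 and downstream CIN2 at 0.19.

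The genes with small losses outside the chaperone list included several of protein turnover and folding. CPR1 (YDR155C, IV, 768512 to 769000), the cyclophilin A gene, had 142 normalized reads with rapamycin and 215 without it, for a log2 ratio of -0.59 (-0.78 to -0.40), and YDR154C, an open reading frame that overlaps it, was at -0.64. Of 19 kept ubiquitin and quality control genes 1 was called lower and 1, HSP31, higher, near 3.84% and 3.75% of all kept genes. The gene called lower was UBC4, a ubiquitin-conjugating enzyme gene for misfolded proteins, at 42.5 with rapamycin and 69.8 without it. Its ratio was -0.68 (-1.01 to -0.35). Proteasome genes, which encode the protease that degrades ubiquitinated proteins, had 5 of 33 members called lower and none higher, against 3.84% lower among all kept genes. These were PRE6 at -0.64, RPT1 at -0.52, PRE2 at -0.42, PRE10 at -0.39 and PUP2 at -0.38. PRE6 and RPT1 were still called with the widened interval, and PRE10 and PUP2 were lost with columns rescaled to equal totals. The sum over all 33 genes with rapamycin was 85.8% of that without it. APA1 (YCL050C, III, 37836 to 38801), a nucleotide phosphorylase gene, had 37.8 with rapamycin and 63.8 without it, a ratio of -0.71. HSV2 at -0.94 and PEA2 at -0.91 had fewer than 11 normalized reads with rapamycin, and the uncharacterized YGR079W was at -0.68.

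Some genes for ribosome assembly were among the small losses. Of 76 measured ribosome biogenesis genes 6 were called lower and 1 higher, against 3.84% and 3.75% of all kept genes. The median log2 ratio was -0.13, and 55 members were below 0, against 2275 of the 4585 kept genes. SSF1 (YHR066W, VIII, 229335 to 230696), a 60S assembly gene, had 23.0 normalized reads with rapamycin and 43.7 without it, with a ratio of -0.85 (-1.27 to -0.43). UTP18 (YJL069C, X, 310922 to 312706), a subunit gene of the small-subunit processome, had 51.2 with rapamycin and 85.7 without it, a ratio of -0.71 (-1.02 to -0.41). MAK16 at -0.60, SOF1 at -0.56, DBP7 at -0.49 and BFR2 at -0.48 were the others, and RRP15 was the gene called higher, at 0.42. ISU1 (YPL135W, XVI, 297553 to 298050), the scaffold gene for iron-sulfur clusters, had 127 with rapamycin and 190 without it, a ratio of -0.57 (-0.77 to -0.36). Of 134 kept ribosomal protein genes 2 were called lower and none higher, which is below the share of all kept genes, with RPS21A at -0.44 among them. Of the 135 measured 89 were below 0 and 46 above, with a median log2 ratio of -0.06.

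General stress genes of the Msn2/4 type were among the small gains. Msn2 and Msn4 are transcription factors that act apart from Hsf1 on genes for carbohydrate reserve and oxidative defence. Of 34 kept genes on the Msn2/4 list 9 were called higher and none lower, against 3.75% higher among all kept genes, and the median log2 ratio of the 35 measured was 0.15. GPD1 (YDL022W, IV, 411825 to 413000), a glycerol synthesis gene, had 98.2 normalized reads with rapamycin and 55.9 without it, with a ratio of 0.78 (0.50 to 1.07). GLK1 (YCL040W, III, 50838 to 52340), a glucokinase gene, had 112 with rapamycin and 68.0 without it, a ratio of 0.70 (0.44 to 0.97). SPI1 at 0.96, RGI1 at 0.86, ALD3 at 0.65, CYC7 at 0.63, PNC1 at 0.57, TPS3 at 0.48 and GPP2 at 0.44 were the others. With the widened interval 3 of the 9 were still called, GPD1, GLK1 and PNC1. SPI1, RGI1, ALD3 and CYC7 passed the level filter through the heat shock columns and would fail a filter set on the 30 °C columns, under which the median of the kept members was 0.14, against 0.19 with the filter used. HSP12 and TSL1, genes of the same list, were at 0.08 and 0.25 and were not called. YDL023C, a dubious reading frame overlapping GPD1, was at 0.93, and its reads and those of GPD1 cannot be told apart.

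The 2 genes at least 2-fold higher rested on few reads. PCL8 (YPL219W, XVI, 136750 to 138228), a cyclin gene of the Pho85 kinase that controls glycogen synthesis, had 17.2 normalized reads with rapamycin and 6.89 without it, for a log2 ratio of 1.04 (0.44 to 1.64). LEU5 (YHR002W, VIII, 108812 to 109885), a mitochondrial carrier gene, had 15.4 with rapamycin and 6.11 without it, a ratio of 1.03 (0.41 to 1.65). Neither was past 2-fold with a pseudocount of 0.5 of the median, with the filter at the 40th percentile or with the filter set on the 30 °C columns. Among the smaller gains CIT2 (YCR005C, III, 120946 to 122328), the peroxisomal citrate synthase gene of the retrograde pathway, had 228 with rapamycin and 157 without it, a ratio of 0.53 (0.35 to 0.71). CIT1, its mitochondrial counterpart, was at 128 with rapamycin and 86.0 without it, with a ratio of 0.56. STF2 at 0.83, TDA6 at 0.79, YPL014W at 0.77, ACA1 at 0.77, SNA4 at 0.76, RSM26 at 0.76, TPO2 at 0.63 and YBR287W at 0.62 were of like size. YML002W at 0.99, PUS5 at 0.92 and YGR149W at 0.90 had under 12 normalized reads without rapamycin.

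**Figure D4:**
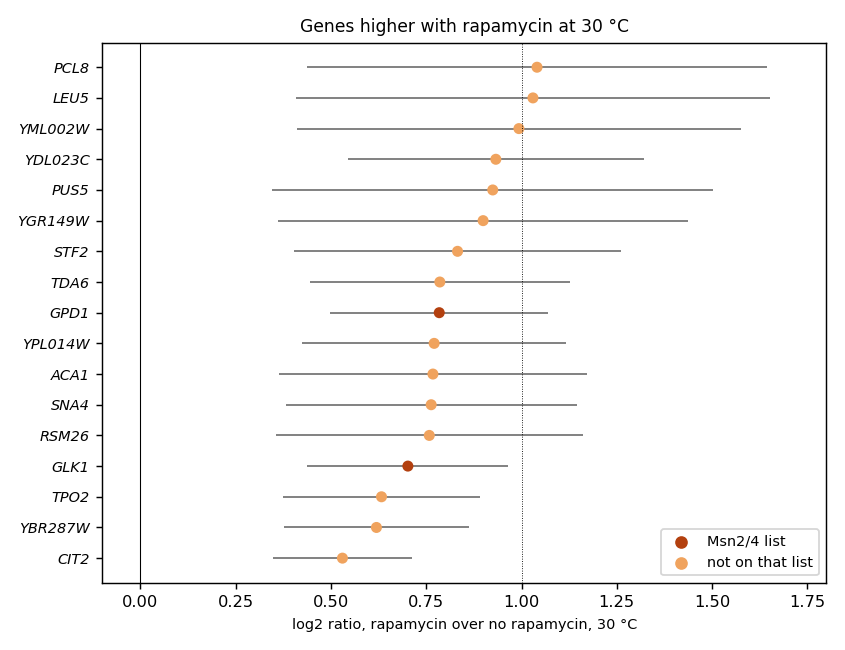
Log2 ratios of rapamycin over no rapamycin at 30 °C (x axis) with 95% counting intervals for the 2 genes at least 2-fold higher and the 15 smaller gains whose interval lay farthest from 0. PCL8 and LEU5 reach 1.04 and 1.03, and GPD1 and GLK1 of the Msn2/4 list are at 0.78 and 0.70.

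Rapamycin inhibits TOR complex 1 in cells with a sensitive kinase, which raises nitrogen catabolite genes and lowers ribosome production. The ribosome biogenesis and ribosomal protein genes are described above, with 6 of 76 and 2 of 134 called lower. Below 0 were 55 of 76 and 89 of 135 measured. The counts that follow stand against 3.84% lower and 3.75% higher among all kept genes. None of the 20 kept nitrogen catabolite genes was called in either direction, and 19 of the 24 measured were above 0 with a median log2 ratio of 0.10. The other 5 were below 0, where 2275 of the 4585 kept genes were. The nitrogen catabolite genes farthest from 0 were DAL5 at 0.42 and UGA4 at 0.38, neither of them called. Among 29 kept TOR pathway genes LST8 was called lower and YPK2 higher, at 0.55, and the median was -0.04. Of 38 kept amino acid genes of the Gcn4 type 1 was called lower and none higher. Endoplasmic reticulum folding genes had 1 of 21 called higher, MPD1 at 0.57, and none lower. The chaperonin and prefoldin genes had 1 lower and 1 higher of 13 kept, GIM3 at -0.41 and GIM5 at 0.57. No ribosome-associated chaperone gene, histone gene or Pdr1/Pdr3 drug resistance gene was called in either direction.

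**Figure D5:**
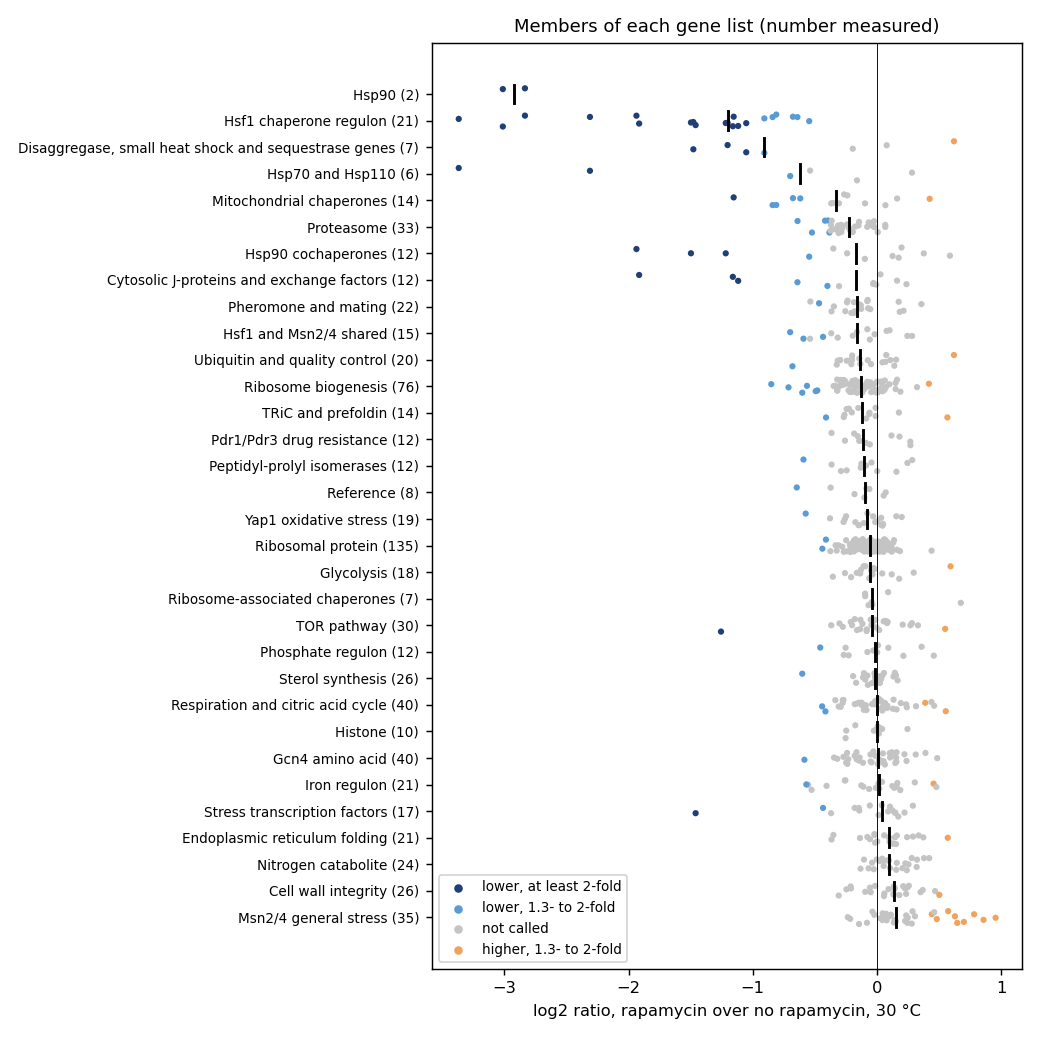
Each point is 1 measured gene placed by its log2 ratio of rapamycin over no rapamycin at 30 °C (x axis) in the gene list named on the y axis, and the black bars are list medians. The Hsp90 and Hsf1 lists have medians of -2.92 and -1.20, while most other lists lie within 0.2 of 0 and the Msn2/4 list has a median of 0.15.

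The same rapamycin comparison at 39 °C shares no column with that at 30 °C. All 17 genes past 2-fold lower at 30 °C were past 2-fold lower at 39 °C, where 2.88% of kept genes were. BTN2 and CUR1 are counted here although they passed the filter through the heat shock columns. With the filter set on the 30 °C columns 15 of the 17 were left. The 17 genes make up 17 of the 132 genes lower at 39 °C. Of the 159 genes with smaller losses at 30 °C, 22 were at least 2-fold lower at 39 °C and 22 at least 2-fold higher, against 2.88% and 5.37% of kept genes. The 22 lower ones include 6 of the chaperone list, which are APJ1, CPR6, HSP10, HSP42, HSP60 and MDJ1. They also hold SSE1, SGT2, UBC4, RPN4, APA1 and UPC2, which are not on that list. Singled out after their values were seen, ZPR1 and TAH11 belong to the 22 as well. ZPR1, a zinc finger protein gene that acts with elongation factor 1A, had 51.2 normalized reads with rapamycin and 71.2 without it at 30 °C, and 15.9 with rapamycin and 596 without it at 39 °C. TAH11, a replication licensing gene, had 39.1 with rapamycin and 61.7 without it at 30 °C, and 25.8 with rapamycin and 374 without it at 39 °C. The 22 genes higher at 39 °C hold ribosome assembly genes such as SSF1, UTP18, MAK16, SOF1 and BFR2, whose values without rapamycin at 39 °C were at most 5.17. Of the 170 genes with smaller gains at 30 °C, 3 were at least 2-fold lower at 39 °C and 5 at least 2-fold higher, both below the shares of all kept genes. In the other direction 39 of the 132 genes lower at 39 °C, 29.5%, were called lower at 30 °C, and 90 of them were not called at 30 °C.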

How the data were processed

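The authors deposited 1 table with a mean normalized read count (a signal value) per gene and condition, per the file headers. HTSeq and the build sacCer3 appear per the submitters' processing notes. For nascent RNA the aligner, annotation, versions, strand setting and scaling were not given in the sources used here. Columns were matched to conditions by their header abbreviations. Low values up to 6 were met by sums of whole reads of 2 libraries, each rounded to 2 decimals, for 98.9% to 100% of such values per column, and counting errors follow from these 2 steps. Log2 ratios used a pseudocount of 2.851, which is 0.1 of the median value, and a filter at 14.442. Percentages left were computed without a pseudocount, with conditional binomial intervals. No test was run, since each condition has 1 sample and no replicate columns. Genes under the filter were never called. Reads carry no molecular identifiers, and intervals cover counting error only. Coordinates and neighbours come from RefSeq R64, which matched 5351 of 5732 genes. Members, gene lists and thresholds were chosen with earlier results of these data known. Named were all genes past 2-fold, every Hsf1 chaperone list member, and the 15 smaller losses and 15 smaller gains with the interval farthest from 0. Genes divergent from or overlapping a gene past 2-fold, HSF1 and genes of the tethering system were named as well. The 2 members farthest from 0 were named for some lists only. Other members and neighbours named beside a count were chosen after their values were seen. Promoter and protein sequences were not used here. Python 3.11.15, numpy 2.4.6, pandas 2.3.3 and scipy 1.17.1 were used.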

Additional observations from a re-analysis of the deposited data

Results flagged for a closer look

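Among the genes named above, 4 differed by at least 1.3-fold past counting error in opposite directions with rapamycin at 30 °C and at 39 °C. The difference between temperatures was not tested. In normalized reads, SSF1 was at 23.0 with rapamycin and 43.7 without it at 30 °C, and at 6.88 with rapamycin and 1.38 without it at 39 °C. Its log2 ratio at 39 °C minus that at 30 °C was 2.05. The lowest value of any gene without rapamycin at 39 °C was 1.01, so the SSF1 value there rests on few reads. Its percentage at 39 °C was 496%, with a counting interval from 117% to 3170%. UTP18 was at 51.2 with rapamycin and 85.7 without it at 30 °C, and at 13.8 with rapamycin and 5.17 without it at 39 °C, a difference of 1.76. ISU1 was at 127 with rapamycin and 190 without it at 30 °C, and at 140 with rapamycin and 67.9 without it at 39 °C, a difference of 1.58. ACA1, a transcription factor gene, was at 45.0 with rapamycin and 25.3 without it at 30 °C, and at 18.2 with rapamycin and 44.9 without it at 39 °C, a difference of -1.95. Over all kept genes 29 of the 176 genes called lower at 30 °C were called higher at 39 °C, and 15 of the 172 called higher at 30 °C were called lower at 39 °C, by the same 1.3-fold rule. These are 16.5% and 8.72%, where 17.99% of all kept genes were called higher at 39 °C and 14.05% lower. Lower at both temperatures were 60 of the 176 genes (34.1%), and higher at both were 26 of the 172 (15.1%).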

How the results depend on the processing

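At 0.5 of the median as pseudocount, 11 genes were at least 2-fold lower and 0 higher, 89 and 98 were lower and higher by 1.3-fold to 2-fold, and the median of the Hsf1 chaperone list was -0.94. The genes no longer past 2-fold there were BTN2, CUR1, FES1, HSP104, HSP78 and LST8. The count at least 2-fold higher was 10 at a pseudocount of 0.01 of that median, 5 with no filter, 0 with the filter at the 40th percentile and 0 with the filter on the 30 °C columns. With a 99% counting interval 70 smaller losses and 80 smaller gains were left, and with the widened interval 104 losses. The widening and the filter on the 30 °C columns were chosen after seeing the data. Of 55 list members with smaller differences, 19 lost their call with the widened interval and 22 with the 99% interval. The other 36 recomputed counts and medians stayed within 1.5-fold or 0.2 of their values, and no called gene among those named by rule changed direction under another pseudocount, filter or scaling. Of the values of single lists and genes, 579 stayed within 0.1 (lists) or their counting interval (genes) and 13 did not. No paired analysis was possible because each condition has 1 sample and its columns carry no replicate numbers. Counting error was 12.3% of a value with rapamycin and 11.3% without it at the median gene at 30 °C.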

Other observations

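Metabolic and surface genes had scattered small differences at 30 °C, and the lists below were drawn up with earlier results of these data known. Their counts stand against 3.84% of all kept genes called lower and 3.75% called higher, and single calls in lists of this size are near those shares. Of 40 respiration and citric acid cycle genes 2 were called lower and 2 higher. COX5A, a cytochrome oxidase subunit gene, had 102.7 normalized reads with rapamycin and 140.4 without it, and QCR6, a subunit gene of complex III, had 111.6 with rapamycin and 149.7 without it. CIT1 and LSC1, which encode citric acid cycle enzymes, were higher at log2 ratios of 0.56 and 0.39. Of 18 glycolysis genes PDC5, a pyruvate decarboxylase gene, was called higher at 0.59 and none was called lower. Among 15 kept genes of the iron regulon FET3, the iron uptake oxidase gene, was higher at 118.3 with rapamycin and 85.4 without it, while ISU1 was lower. YPS1, a cell surface protease gene, had 155.97 with rapamycin and 109.2 without it and was the 1 gene called of 26 cell wall integrity genes.

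In several other lists 1 gene was called lower, which is near 3.84% for lists of this size. PHO84, the phosphate transporter gene, had 73.3 normalized reads with rapamycin and 101.6 without it, and was the 1 gene called of 10 kept phosphate genes. AGA1, an agglutinin subunit gene, was lower at -0.47 among 17 kept pheromone and mating genes. TRX3, the mitochondrial thioredoxin gene, was lower at -0.57 among 15 kept Yap1 oxidative stress genes, and ORT1 was the gene called lower of 38 kept on the Gcn4 list, at -0.58. The intervals of TRX3 and ORT1 ended within 0.01 of 0, and both calls were lost with columns rescaled to equal totals. TAF10, a subunit gene of TFIID, was lower at -0.64 among 8 reference genes. Of 15 measured genes listed for both Hsf1 and Msn2/4 3 were called lower, SSE1, CPR1 and RPN4, with none higher. Among 12 peptidyl-prolyl isomerase genes CPR1 was called lower, and among 26 sterol genes UPC2.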
